A study of Mus musculus with 6 samples.

Results

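Chemokine ligands are the small secreted proteins by which an activated T cell calls other cells to itself. Of their genes, 8 were followed in mouse cells labelled as CD8+ T cells, with and without the lipid sphingosine-1-phosphate (S1P). The genes were Xcl1, Ccl1, Ccl3, Ccl4, Ccl5, Ccl9, Ccl22 and Cxcl10. They were taken by name, with earlier results of these data known. The Ensembl identifiers of the count table were matched to GENCODE symbols. Each of the 8 genes matched 1 of the 56941 identifiers listed. RNA was sequenced from 3 vehicle-treated and 3 S1P-treated samples. According to the labels the cells were naive CD8+ T cells purified from the spleen of B6 mice, whereas the methods of the study name purified naive T cells or whole splenocytes as the starting cells. Cells of both groups were activated for 3 days with plate-bound antibodies to CD3 and CD28 and with recombinant IL-2 at 100 U/ml. S1P at 5 µM, or vehicle, was given 24 h after activation, so that the groups differed in S1P only, at a single dose and a single time. The labels call the samples biological replicates without naming the animals, and p-values therefore measure the spread between these samples.

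Chemokines bind G-protein-coupled receptors on leukocytes and guide their migration. XCL1 attracts dendritic cells that carry XCR1 and present antigen to CD8+ T cells. CCL3, CCL4 and CCL5 draw further T cells, monocytes and NK cells, and activated CD8+ T cells secrete them together with cytotoxic granules. CCL1 binds CCR8 and CCL22 binds CCR4, receptors that are well known on regulatory and type 2 helper T cells. CCL9 binds CCR1 on myeloid cells. CXCL10 is an interferon-induced ligand of CXCR3, the receptor that leads effector T cells into inflamed tissue. In T cells the genes of this family are switched on by signals from the antigen receptor and by cytokines, through factors such as NF-kB, AP-1, T-box proteins and, for Cxcl10, interferon regulatory factors.

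Of the 8 genes, 4 were lower and 2 higher after S1P, where 23.1% of all tested genes were called in either direction. The calls of Ccl1 and Ccl5 were lost in several other fits, and 4 of the 8 genes were called with DESeq2. Xcl1, Ccl3 and Ccl4, by far the most abundant of the 8, fell to between 0.2998 and 0.482 of their vehicle level, and the low-abundance gene Ccl1 also fell. Cxcl10 rose to 3.15 times and Ccl5 to 1.59 times the vehicle level. Ccl9 and Ccl22 did not pass the test. The summed level of the 8 genes after S1P was 0.457 of that in vehicle-treated cells.

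The sequence just upstream of the start sites is given first for 4 of the called genes, as context for the values that follow. Promoter sequence from RefSeq (GRCm38.p6) was matched by symbol to 6 of the 8 genes, all but Ccl4 and Ccl5. The 250 bases before the start of Xcl1 (chr1:164935523-164935772, minus strand), of Ccl1 (chr11:82179813-82180062, minus strand), of Ccl3 (chr11:83649379-83649628, minus strand) and of Cxcl10 (chr5:92348890-92349139, minus strand) read as follows, 5′ to 3′ along the gene, with motif matches in capitals. Xcl1 and Ccl3 are shown as genes that fell, Ccl1 as a weaker case and Cxcl10 as the gene that rose most, and the positions of the capitals are given after the sequences.
Xcl1: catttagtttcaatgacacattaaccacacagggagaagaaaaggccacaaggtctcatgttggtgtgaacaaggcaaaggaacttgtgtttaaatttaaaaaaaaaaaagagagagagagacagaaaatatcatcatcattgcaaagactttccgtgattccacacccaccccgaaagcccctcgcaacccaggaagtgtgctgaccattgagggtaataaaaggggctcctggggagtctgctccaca
Ccl1: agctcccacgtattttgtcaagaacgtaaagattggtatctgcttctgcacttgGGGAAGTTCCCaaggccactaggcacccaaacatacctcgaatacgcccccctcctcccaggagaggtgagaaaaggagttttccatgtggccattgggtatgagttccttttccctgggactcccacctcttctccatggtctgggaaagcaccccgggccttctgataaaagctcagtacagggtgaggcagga
Ccl3: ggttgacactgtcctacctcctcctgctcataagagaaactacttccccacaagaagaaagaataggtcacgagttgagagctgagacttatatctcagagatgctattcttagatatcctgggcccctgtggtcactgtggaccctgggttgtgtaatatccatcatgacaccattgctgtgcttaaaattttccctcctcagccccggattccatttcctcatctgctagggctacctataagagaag
Cxcl10: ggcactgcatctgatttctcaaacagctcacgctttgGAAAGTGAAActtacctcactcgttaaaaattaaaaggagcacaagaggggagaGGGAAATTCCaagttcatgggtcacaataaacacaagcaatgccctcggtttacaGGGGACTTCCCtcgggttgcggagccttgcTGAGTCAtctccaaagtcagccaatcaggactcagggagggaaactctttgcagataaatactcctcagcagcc

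Except for the TATA box, of which matches are given on the strand of the gene only, motifs were searched on both strands. They were the NF-kB motif, the core of the interferon-stimulated response element (GAAANNGAAA), the AP-1 motif (TGANTCA), the core of the combined ATF4 and C/EBP element (TGATGNAA) and the TATA box (TATAAA). The window of Cxcl10 held NF-kB motifs at 159 to 150 and at 104 to 94 bases before the start, the latter being matches that overlap by all but 1 base and on opposite strands. It also held the interferon-stimulated core at 213 to 204 bases and an AP-1 motif at 74 to 68 bases before the start. The window of Ccl1 held an NF-kB motif at 196 to 186 bases, again as overlapping matches on opposite strands. That of Ccl9, which is not shown, held an NF-kB motif, an AP-1 motif and a TATA box. No match was found in the windows of Xcl1, Ccl3 and Ccl22, which says only that these letters are not in those 250 bases. Among all 32851 windows of this length, 7.25% held the NF-kB motif, 2.98% the interferon-stimulated core, 6.75% the AP-1 motif, 3.45% the ATF4 and C/EBP core and 7.59% the TATA box.

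The libraries held 13636095 to 17089831 counts in vehicle-treated and 12048880 to 17384084 counts in S1P-treated samples. Mitochondrial transcripts made up 4.10% to 4.93% of the counts in 5 libraries and 7.80% in S1P replicate 2. That library also stood apart from its group over all genes, with a chi-square per gene of 31.4 and 17.8 against the other S1P-treated libraries, where all other pairs of the same group had 3.77 to 5.97. Without it the same 6 of the 8 genes were called, with log2 fold changes of -1.98 for Xcl1, -1.42 for Ccl1, -1.23 for Ccl3, -1.03 for Ccl4, 0.82 for Ccl5 and 1.74 for Cxcl10. Levels are given as CPM, the counts of a gene per 1000000 counts of its library, with library totals scaled by TMM (trimmed mean of M-values) factors. A gene was called when the adjusted p of edgeR's quasi-likelihood test was at most 0.05 and the log2 fold change at least 0.3 in size, and of 13299 tested genes 23.1% were called, 10.4% lower and 12.7% higher after S1P. All 8 chemokine ligand genes had enough counts to be tested. Of the 8, 6 were called against 23.1% of all tested genes, 4 were lower against 10.4% and 2 were higher against 12.7%. The 8 genes and the lists of receptor and regulator genes below were chosen with earlier results of these data known. Their shares are therefore no test against all tested genes. The median log2 fold change was -0.56 over the 8 genes and 0.01 over all tested genes. The values of the 3 samples of 1 group lay all above or all below those of the other group for 5 of the 8 genes, as they did for 45.6% of all tested genes.

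The labelled cell type was checked against marker genes, since chemokines are made by many leukocytes. Cd8a stood at 207 to 251 CPM in vehicle-treated and at 132 to 144 CPM in S1P-treated samples and was lower after S1P (log2 fold change -0.67, adjusted p = 0.000243), as was Cd8b1 (-0.55, adjusted p = 0.00767). Of the other T cell markers of the list, Cd3d (-0.28, adjusted p = 0.0129) and Cd3g (-0.21, adjusted p = 0.0444) passed the p threshold without overlap between groups but were under the fold threshold, and Cd3e and Trac were not called. Cd4, the mark of helper T cells, was at 186 to 223 CPM in vehicle-treated and 195 to 254 CPM in S1P-treated samples and was not called. Of the other genes of that list, Cd40lg, a helper T cell ligand for B cells, was higher after S1P (log2 fold change 0.50, adjusted p = 0.0134), and Foxp3, the factor of regulatory T cells, was not called (0.02). The 6 B cell markers together reached 599 to 750 CPM in vehicle-treated and 598 to 688 CPM in S1P-treated samples, and of these Ms4a1 and Cd22 were lower after S1P. Of 6 macrophage and monocyte markers none had enough counts to test, and their sum was at most 1.23 CPM in any library. The 6 dendritic cell markers summed to 4.11 to 5.996 CPM with vehicle and 7.11 to 7.54 CPM with S1P, most of it from Zbtb46 (log2 fold change 0.46, not called), while Clec9a had no count in any library and Xcr1 at most 4. The 4 NK cell markers summed to 1.79 to 2.05 CPM with vehicle and 1.52 to 3.16 CPM with S1P. Transcripts of helper T cells and B cells were thus present in every library. The levels of Cd4 overlapped those of Cd8a with vehicle and lay above them in every S1P-treated sample. Which cells the chemokine transcripts came from was not tested. In such bulk samples fewer cells of a type and less RNA per cell cannot be told apart.

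**Figure D1:**
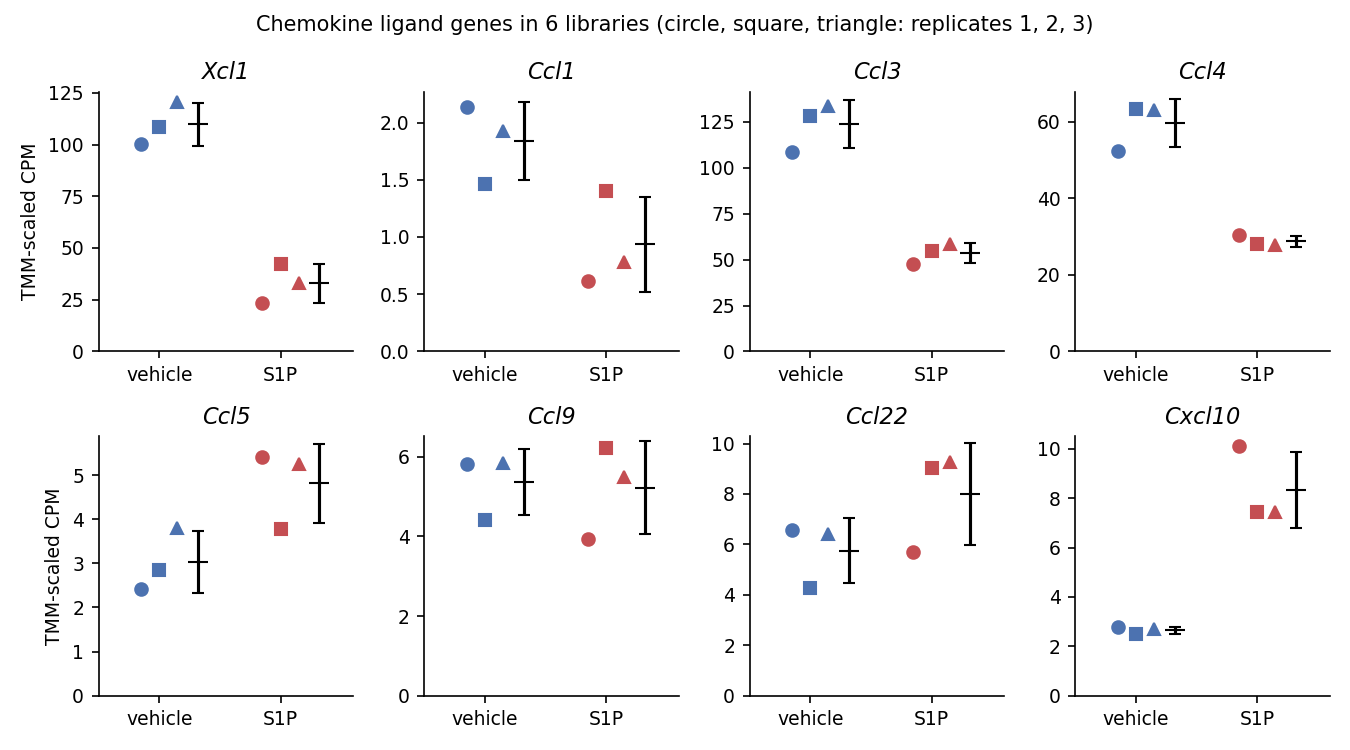
TMM-scaled CPM (vertical axes, each from 0) of the 8 chemokine ligand genes in vehicle-treated (blue) and S1P-treated (red) samples, with circles, squares and triangles for replicates 1, 2 and 3 and black bars for the mean ± SD of 3 samples. The groups are apart for Xcl1, Ccl1, Ccl3, Ccl4 and Cxcl10 and overlap for Ccl5, Ccl9 and Ccl22.

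Xcl1 encodes the ligand of XCR1 and lies at chr1:164759213-164763096 (GRCm39, minus strand, identifier ENSMUSG00000026573), with 523 exon bases in 3 exons. Its level was 100.1, 109 and 121 CPM in the vehicle-treated samples and 23.4, 42.5 and 32.9 CPM in the S1P-treated samples. Every S1P-treated sample lay far below every vehicle-treated sample, and the S1P-treated samples spread more widely relative to their mean. The mean fell from 110 ± 10.3 to 32.9 ± 9.56 CPM (SD, n = 3 each). The log2 fold change was -1.76 (SE 0.162, 95% interval -2.11 to -1.40, adjusted p = 4.24e-05 by edgeR's quasi-likelihood test), larger in size than that of 99.3% of the tested genes. S1P replicate 2, the library with 7.80% mitochondrial counts, had the highest Xcl1 level of its group, and without it the log2 fold change was -1.98 (adjusted p = 5.37e-07). An opposite-strand gene, Gm20743, covers 18.7% of the exon bases of Xcl1 and had 18, 29 and 19 counts with vehicle and 3, 8 and 11 counts with S1P. Xcl1 itself had 1481 to 1875 and 415 to 484 counts. Gm20743 was also called lower (log2 fold change -1.41, adjusted p = 0.0498 by the same test). Whether reads of 1 of these genes were counted for the other was not tested.

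Ccl3 and Ccl4 encode the inflammatory ligands also known as MIP-1α and MIP-1β and are neighbours on chromosome 11, transcribed away from each other with 13.2 kb between them. Ccl3 lies at chr11:83538670-83540191 (minus strand, ENSMUSG00000000982). It stood at 109, 128 and 134 CPM in the vehicle-treated samples and at 47.5, 54.6 and 58.4 CPM in the S1P-treated samples. The S1P-treated samples were close together and far below the vehicle-treated ones, and the mean fell from 124 ± 13.1 to 53.5 ± 5.54 CPM (SD, n = 3 each). The log2 fold change of Ccl3 was -1.21 (SE 0.0975, 95% interval -1.43 to -0.999, adjusted p = 2.1e-05). The opposite-strand gene Gm53692 covers 35.6% of the exon bases of Ccl3 and had at most 7 counts in any library, against 622 or more for Ccl3. Here too, reads counted for the wrong gene were not tested.

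Ccl4 lies at chr11:83553383-83555509 (plus strand, ENSMUSG00000018930), and its exons overlap no exon of another gene. Its level was 52.5, 63.4 and 63.1 CPM with vehicle and 30.4, 28 and 27.8 CPM with S1P. The S1P-treated samples differed least among themselves for this gene relative to their mean, 28.7 ± 1.47 CPM against 59.7 ± 6.24 CPM with vehicle (SD, n = 3 each). On the log2 scale the fold change was -1.05 (SE 0.0925, 95% interval -1.25 to -0.85, adjusted p = 3.62e-05). Within each library Ccl3 and Ccl4 kept close to the same ratio, with a mean log2 ratio of 1.05 ± 0.03 in vehicle-treated and 0.89 ± 0.22 in S1P-treated samples. The difference of -0.16 did not hold up against the replicate spread, since the groups overlapped (exact permutation test, two-sided, p = 0.3).

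Ccl1 encodes the ligand of CCR8 and had the fewest counts of the 8 genes in every library. It had 37, 20 and 30 counts in the vehicle-treated and 11, 16 and 10 counts in the S1P-treated samples, or 2.13, 1.47 and 1.93 CPM against 0.619, 1.40 and 0.785 CPM. S1P replicate 2 came close to vehicle replicate 2, and the groups did not overlap. The log2 fold change was -1.04 (SE 0.335, 95% interval -1.78 to -0.31, adjusted p = 0.0365). This call was held in only 7 of 14 other fits, with adjusted p-values from 0.00833 to 0.133. It was lost with DESeq2 (adjusted p = 0.107), with the replicate number as a block (0.0501) and without any single vehicle-treated sample (0.0507 to 0.133), S1P replicate 1 (0.128) or S1P replicate 3 (0.108). The annotated gene (chr11:82067483-82196516, minus strand, ENSMUSG00000020702) spans 129 kb and includes a long transcript for which no coding sequence is defined.

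Ccl5 encodes RANTES, which memory and effector CD8+ T cells store and release quickly on contact with antigen. Its level was 2.42, 2.86 and 3.79 CPM with vehicle and 5.40, 3.77 and 5.26 CPM with S1P. S1P replicate 2 lay just below vehicle replicate 3, so that the groups overlapped. The log2 fold change was 0.69 (SE 0.221, 95% interval 0.20 to 1.17, adjusted p = 0.0374), and the call was held in 9 of 14 other fits. It was lost with DESeq2 (adjusted p = 0.0949) and without vehicle replicate 1 (0.148), vehicle replicate 2 (0.105), S1P replicate 1 (0.1) or S1P replicate 3 (0.118). Ccl5 lies on chromosome 11 at 83416602 to 83425942 (minus strand, ENSMUSG00000035042), in the same cluster as Ccl9, Ccl3 and Ccl4, and moved in the opposite direction to Ccl3 and Ccl4.

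Cxcl10 encodes the interferon-induced ligand IP-10 and showed the largest rise of the 8 genes. It lies at chr5:92494497-92496748 (minus strand, ENSMUSG00000034855). Its level was 2.77, 2.49 and 2.70 CPM in the vehicle-treated and 10.1, 7.46 and 7.46 CPM in the S1P-treated samples. The vehicle-treated samples were nearly level, and the lowest S1P-treated sample was above all of them. The mean rose from 2.65 ± 0.142 to 8.35 ± 1.54 CPM (SD, n = 3 each). This was a log2 fold change of 1.66 (SE 0.183, 95% interval 1.26 to 2.06, adjusted p = 0.000116). It was larger in size than that of 99.1% of the tested genes.

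Cxcl10 lies between Cxcl9 and Cxcl11 on chromosome 5, with 18.6 kb to Cxcl9 and 10.7 kb to Cxcl11, and all 3 encode interferon-induced ligands of CXCR3. Cxcl11 was higher after S1P, at 0.692, 0.660 and 0.193 CPM with vehicle against 2.64, 2.90 and 3.45 CPM with S1P. Its log2 fold change was 2.51 (95% interval 1.74 to 3.29, adjusted p = 0.000491), from 3 to 12 counts with vehicle and 33 to 47 with S1P. Cxcl9 was at 0.742 ± 0.329 and 1.22 ± 0.232 CPM (SD, n = 3 each), with overlapping groups and a log2 fold change of 0.71 that was not called (adjusted p = 0.161).

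Ccl9 encodes a ligand of CCR1 and Ccl22 a ligand of CCR4, and neither was called. Ccl9 (chr11:83463745-83473161, minus strand, ENSMUSG00000019122) was at 5.82, 4.40 and 5.85 CPM with vehicle and at 3.94, 6.23 and 5.50 CPM with S1P. The values of the groups interleaved, with a log2 fold change of -0.07 (95% interval -0.51 to 0.37, adjusted p = 0.824), an interval that leaves room for changes of the size of the 0.3 threshold in either direction. Its sign turned without S1P replicate 1 (0.12, adjusted p = 0.683).

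Ccl22 (chr8:95471226-95478327, plus strand, ENSMUSG00000031779) was at 6.57, 4.25 and 6.43 CPM with vehicle and at 5.68, 9.04 and 9.26 CPM with S1P. S1P replicates 2 and 3 lay above every vehicle-treated sample, but S1P replicate 1 lay below vehicle replicates 1 and 3. The log2 fold change was 0.44 (SE 0.219, 95% interval -0.04 to 0.92, adjusted p = 0.155), and without S1P replicate 1 it was 0.66 and called (adjusted p = 0.0234). It was 0.27 without vehicle replicate 2 (adjusted p = 0.412) and 0.31 without S1P replicate 3 (adjusted p = 0.413). Ccl22 was called in 1 of 14 other fits. The purification named in the labels would remove other cell types, yet transcripts of helper T cells and B cells were present in every library. Dendritic cells are a known source of CCL22. Of their 6 markers only 2, Flt3 and Zbtb46, could be tested, and neither was called. The S1P to vehicle ratio was 2.06 for Flt3, 1.38 for Zbtb46, 2.29 for Siglech, 6.25 for Xcr1 and 0.94 for Itgax. All of these but Zbtb46 had at most 21 counts in a library. The sum given above was higher after S1P and did not overlap between groups (two-sided p = 0.1 by exact permutation, the lowest possible). The 6 B cell markers summed to far more, on average 699.5 CPM with vehicle and 643.7 CPM with S1P. What part dendritic cells, B cells or other cells had in the Ccl22 values was not tested.

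**Figure D2:**
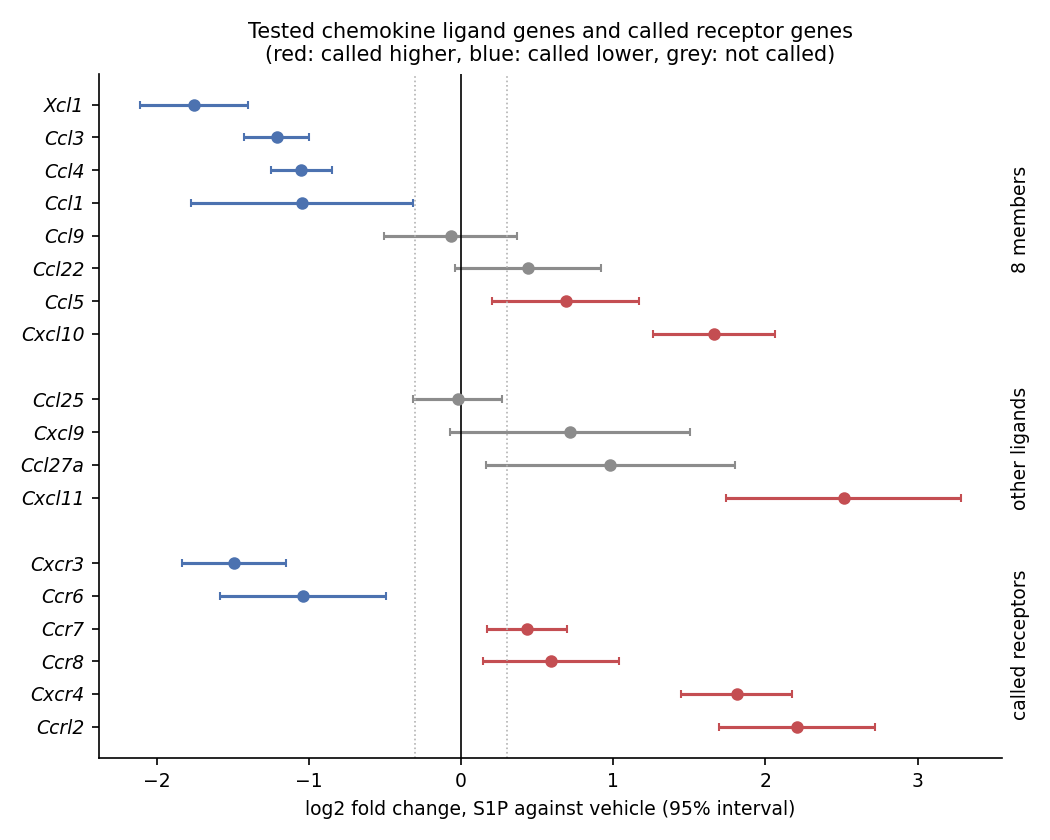
Log2 fold change after S1P against vehicle (horizontal axis, bars give the 95% interval of edgeR's fit) for the 8 chemokine ligand genes, for the 4 other ligand genes that could be tested and for the 6 receptor genes that were called, with red for genes called higher, blue for genes called lower and grey for genes not called; dotted lines mark the 0.3 threshold. Xcl1, Ccl3, Ccl4 and Ccl1 lie to the left of it, Cxcl10 and Ccl5 to the right.

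The calls of Xcl1, Ccl3, Ccl4 and Cxcl10 were held in each of 14 other fits, which changed the test, the scaling, the filter on low counts or the pairing, or left out 1 library. Their log2 fold changes ranged from -1.98 to -1.55 for Xcl1, from -1.30 to -1.13 for Ccl3, from -1.14 to -1.01 for Ccl4 and from 1.48 to 1.74 for Cxcl10. The weaker calls, Ccl1 and Ccl5, came from genes with at most 37 and 96 counts in any library.

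**Figure D3:**
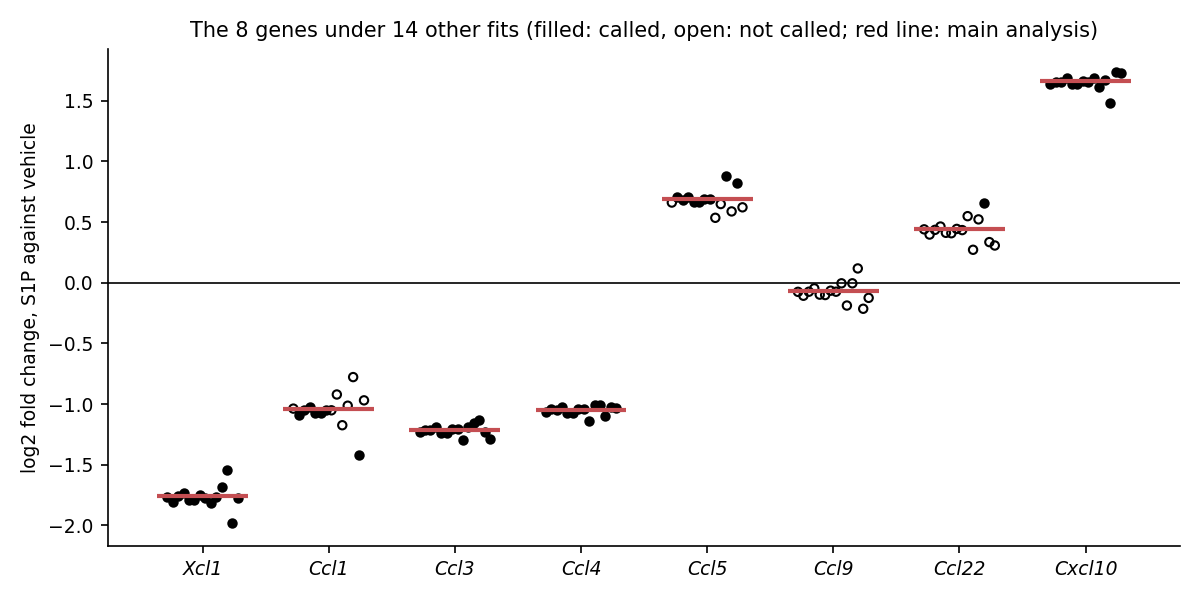
Log2 fold change after S1P against vehicle (vertical axis) of each chemokine ligand gene in the main analysis (red line) and in 14 other fits (circles, filled where the gene was called and open where it was not). The circles of Xcl1, Ccl3, Ccl4 and Cxcl10 are all filled, those of Ccl1 and Ccl5 are mixed, those of Ccl9 are all open and 1 of Ccl22 is filled.

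Levels were compared between genes per kilobase of exon. In vehicle-treated cells Xcl1 had the highest level (210 ± 19.6 CPM per kb), then Ccl3 (159 ± 16.9) and Ccl4 (86.8 ± 9.08), and these 3 did not overlap with their neighbours in the order. A wide gap followed, with Ccl5 at 2.95 ± 0.682, Ccl22 at 2.35 ± 0.532, Ccl9 at 1.72 ± 0.266, Cxcl10 at 1.18 ± 0.0633 and Ccl1 at 0.745 ± 0.138 CPM per kb (SD, n = 3 each). Of these, Ccl5 overlapped with Ccl22 and Ccl22 with Ccl9, whereas Ccl9, Cxcl10 and Ccl1 were apart from each other. In S1P-treated cells Ccl3 (68.9 ± 7.14) and Xcl1 (62.9 ± 18.3) overlapped and could not be ordered, and Ccl4 followed at 41.8 ± 2.15 CPM per kb. Cxcl10, at 3.71 ± 0.684 CPM per kb, was then within the spread of Ccl5 (4.69 ± 0.878) and Ccl22 (3.27 ± 0.821), above Ccl9 (1.68 ± 0.376) and Ccl1 (0.378 ± 0.167). The order of the 5 scarce genes in vehicle-treated cells depended on the length used. The length of the canonical transcript was an alternative added after the data were seen. With it Ccl1 moved from the eighth to the fifth place (2.97 ± 0.5504 CPM per kb). The order of the top 3 was unchanged. In S1P-treated cells the order of the means was the same with both lengths, but the gaps were not. With the canonical length Cxcl10 (7.58 ± 1.4) was above Ccl22 (3.61 ± 0.905) after S1P. Ccl1 (1.51 ± 0.667) was then within the spread of Ccl9 (1.73 ± 0.389).

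The 8 genes made up nearly all chemokine ligand transcripts in these cultures. They held 95.9% to 96.5% of the CPM of all listed ligand genes in vehicle-treated and 90.3% to 90.5% in S1P-treated samples. Their sum was 281, 316 and 338 CPM with vehicle and 127, 153 and 147 CPM with S1P. The groups were far apart. The mean was 312 ± 28.7 CPM with vehicle and 142 ± 13.6 CPM with S1P (SD, n = 3 each, ratio 0.457). A two-sided exact permutation test gave p = 0.1, below which a comparison of 3 with 3 samples cannot go. Per kilobase of exon the sum went from 465 ± 44.5 to 187 ± 21.4 (ratio 0.403).

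The make-up of the sum differed as well. Xcl1 accounted for 35.2% ± 0.715 of it in vehicle-treated and 22.8% ± 4.72 in S1P-treated samples, without overlap. Ccl3 held 39.7% ± 0.955 and 37.6% ± 1.98 and Ccl4 19.1% ± 0.827 and 20.4% ± 3.12, with overlap for both. Cxcl10 went from 0.857% ± 0.110 to 5.97% ± 1.74, Ccl22 from 1.86% ± 0.496 to 5.56% ± 0.957, Ccl9 from 1.73% ± 0.339 to 3.63% ± 0.494 and Ccl5 from 0.963% ± 0.139 to 3.43% ± 0.901 (SD, n = 3 each), all without overlap. Since shares sum to a fixed total, the larger shares of Ccl9 and Ccl22 went with a smaller sum and not with a called change in their own levels.

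**Figure D4:**
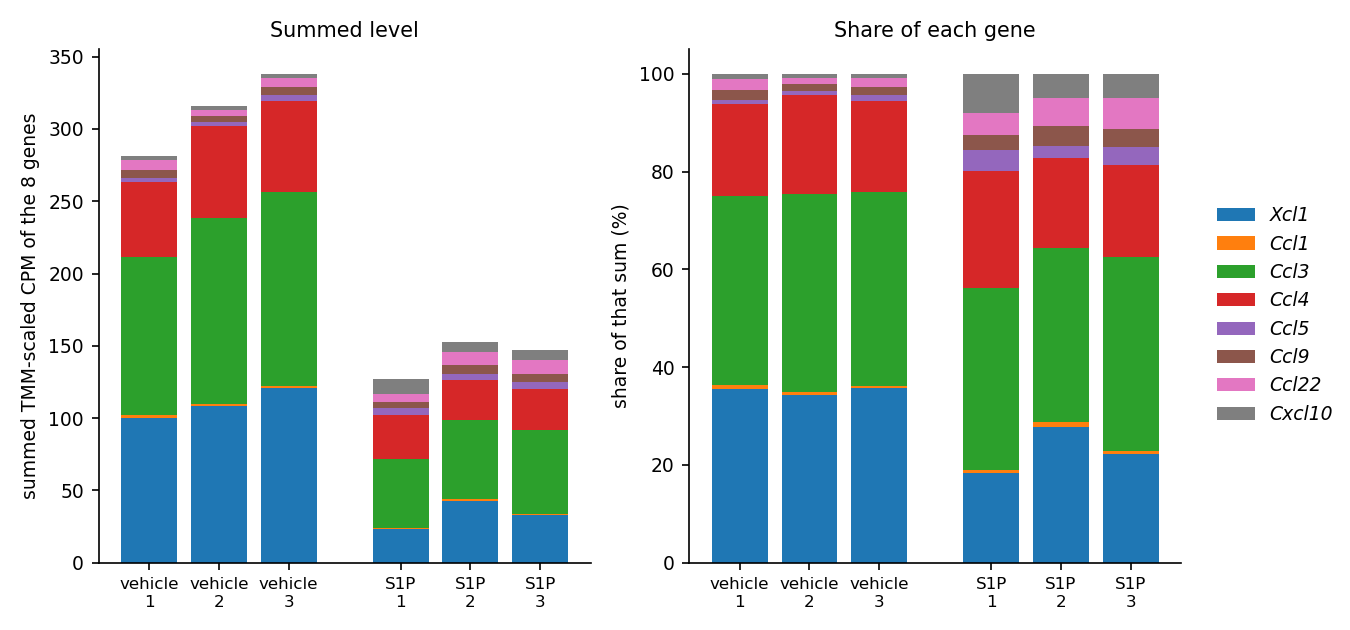
Summed TMM-scaled CPM of the 8 chemokine ligand genes in each library (left, vertical axis from 0) and the share of each gene in that sum in percent (right), with 1 bar per library. The 3 vehicle-treated bars reach 281 to 338 CPM and the 3 S1P-treated bars 127 to 153 CPM, and the share of Xcl1 shrinks from 35.2% to 22.8% on average.

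Ratios between genes of the same library barely depend on how libraries were scaled, and 28 pairs were compared (counts scaled to the mean library, with 0.5 added). In 23 of the 28 pairs the log2 ratios of the groups did not overlap, and each of these had the smallest p an exact permutation test allows here (two-sided p = 0.1, adjusted over the 28 pairs 0.122). No pair can therefore pass 0.05 in this design. A share over pairs of other genes was not available to set beside 23 of 28. Of single tested genes, 45.6% did not overlap between groups. The largest difference was that of Xcl1 to Cxcl10, whose log2 ratio was 5.16, 5.43 and 5.46 in vehicle-treated and 1.20, 2.50 and 2.14 in S1P-treated samples, a difference of -3.40. The log2 ratio of Xcl1 to Ccl3 was -0.12, -0.24 and -0.15 with vehicle and -1.02, -0.36 and -0.83 with S1P, a difference of -0.57 without overlap. The groups overlapped in all 3 ratios among Ccl1, Ccl3 and Ccl4 and in the ratios of Ccl5 to Ccl9 and to Ccl22.

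The genes were also set against markers of the labelled cell type within each library, because Cd8a and Cd8b1 were themselves lower after S1P. Relative to the sum of Cd8a and Cd8b1, the log2 ratio of Xcl1 was lower by 1.16 on average after S1P, that of Ccl3 by 0.588 and that of Ccl4 by 0.428, in each case without overlap. That of Ccl1 overlapped between groups (difference -0.43). The log2 ratio to Cd8a and Cd8b1 was higher by 2.26 for Cxcl10, by 1.297 for Ccl5 and by 1.09 for Ccl22, without overlap, and by 0.57 for Ccl9 with overlap. Relative to the sum of Cd3e, Cd3d, Cd3g and Trac the differences were -1.71 for Xcl1, -1.14 for Ccl3, -0.98 for Ccl4, -0.98 for Ccl1 and 1.71 for Cxcl10, again without overlap, and 0.75 for Ccl5, 0.54 for Ccl22 and 0.02 for Ccl9 with overlap. Relative to the 6 B cell markers they were -1.66 for Xcl1, -1.09 for Ccl3, -0.93 for Ccl4, -0.93 for Ccl1, 0.79 for Ccl5, 0.58 for Ccl22 and 1.754 for Cxcl10, without overlap, and 0.06 for Ccl9 with overlap. Each non-overlapping comparison had an exact permutation p of 0.1, the smallest possible.

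Of the other 31 chemokine ligand genes listed, 11 had no count in any library, where 0 counts allow up to 0.169 to 0.263 CPM depending on the library (3 counts, counting error only). Only 4 could be tested, and the untested ones had at most 16 counts in a library. Of the 4, Cxcl11 was higher. Ccl25, a gut and thymus ligand, was at 8.08 ± 0.625 CPM with vehicle, above 5 of the 8 genes on that scale, and at 7.97 ± 0.557 CPM with S1P (SD, n = 3 each, log2 fold change -0.02, adjusted p = 0.919). Ccl27a (log2 fold change 0.98, adjusted p = 0.0706) and Cxcl9 were not called. Ccl6, which lies between Ccl9 and Ccl3, had 24 counts over all libraries. Ccl2, Ccl7, Ccl11, Ccl12 and Ccl8, which lie together on the other side of Ccl1, had none.

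Of 23 chemokine receptor genes, 12 could be tested, of which 4 were higher and 2 lower after S1P (33.3% and 16.7%, against 12.7% and 10.4% of all tested genes). The receptor gene of CXCL10, Cxcr3, was lower, at 13.4, 14.9 and 14.7 CPM with vehicle and 3.94, 6.06 and 5.57 CPM with S1P (log2 fold change -1.49, 95% interval -1.84 to -1.15, adjusted p = 8.76e-05). Cxcl10 and Cxcr3 thus moved in opposite directions in the same libraries. The receptor gene of CCL22, Ccr4, was not called, at 57.3 ± 9.14 CPM with vehicle and 62.9 ± 5.71 CPM with S1P (SD, n = 3 each, adjusted p = 0.412). Ccr8, whose ligand gene Ccl1 was lower, was higher (log2 fold change 0.59, adjusted p = 0.0486), although that call was held in only 7 of 14 other fits and was lost, for example, with DESeq2 and without S1P replicate 3. Ccrl2, a non-signalling receptor that presents chemerin (log2 fold change 2.21, adjusted p = 9.15e-05), and Cxcr4 (1.81, adjusted p = 4.04e-05) were also higher, as was Ccr7 (0.43, adjusted p = 0.0199), and Ccr6 was lower (-1.04, adjusted p = 0.00972). The call of Ccr7 was lost without vehicle replicate 1 or 3 or S1P replicate 1 or 3 (adjusted p from 0.0501 to 0.0957). Ccr1 had too few counts to test.

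Of 24 listed genes for transcription factors known to act on chemokine genes, all were tested, 7 were higher and 1 lower (29.2% and 4.17%, against 12.7% and 10.4% of all tested genes). Eomes, a T-box factor of effector and memory CD8+ T cells, was lower (65.0 ± 2.61 to 35.95 ± 5.56 CPM, log2 fold change -0.86, adjusted p = 0.000162), while its relative Tbx21 was not called (-0.17, adjusted p = 0.102). Of the interferon pathway, Irf7 rose from 2.73 ± 0.398 to 15.6 ± 2.70 CPM (log2 fold change 2.52, adjusted p = 1.11e-05), and Stat2 (0.92) and Irf9 (0.56) rose as well. Irf1 (-0.06, adjusted p = 0.618) was not called. Of the AP-1 and NF-kB genes, Jun (1.27), Junb (0.79) and Rel (0.35) rose, and Rela (0.22, adjusted p = 0.0382, under the fold threshold) and Relb (-0.15, adjusted p = 0.404) were not called. Runx3, a factor of the CD8 lineage, rose (0.54, adjusted p = 0.0018).

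Genes whose level followed each called ligand gene most closely over the 6 libraries were found by the root mean square difference of log2 CPM, centred on each gene's mean, among 11040 genes whose log2 CPM averaged 1 or more. For Xcl1 the closest was Cxcr3 (0.182), then Cd36 (0.351) and Smpdl3b (0.359). For Ccl3 they were Hpdl (0.0883), Chst2 (0.103) and Crtam (0.11), and for Ccl4 Nkg7 (0.0987), Dohh (0.102) and Mtfp1 (0.116). For Cxcl10 they were Atf3 (0.111), Dhx58 (0.118) and Tgfb3 (0.137). For the scarcer genes they were Srpk3 (0.2), Cr2 (0.209) and Cd180 (0.224) for Ccl1, and Col20a1 (0.112), Gcnt4 (0.135) and Sdr42e1 (0.136) for Ccl5. These distances describe the same 6 libraries, 3 of each group, and closeness over them largely follows the difference between the groups. Cr2 and Cd180, close to Ccl1, are known as B cell genes, Crtam and Nkg7 are known from cytotoxic lymphocytes, and Dhx58 encodes an interferon-induced RNA sensor related to RIG-I.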

How the data were processed

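Strand-specific libraries of polyadenylated RNA were sequenced as paired reads on a NextSeq instrument. The authors used Trim Galore for trimming, STAR for alignment and featureCounts for counting, with GRCm39 named in the submitters' processing notes, and the deposited values are whole-number counts per gene without normalization. The annotation release, strand setting and handling of multiply mapped reads are not given in the sources used here. Symbols and positions came from GENCODE M39 (GRCm39), which held 56323 of 56941 identifiers.

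Groups were taken from the sample labels. Genes with low counts were removed with filterByExpr (13299 kept), and library totals were multiplied by TMM factors. The quasi-likelihood test of edgeR 4.0.16 (under R 4.3.3 with limma 3.58.1) compared the treatments with no further covariate, and p-values were adjusted by Benjamini-Hochberg across all genes tested. Calls used the thresholds of the study (adjusted p up to 0.05, log2 fold change of 0.3 or more in size). Sums and ratios were compared by exact permutation tests, two-sided. The fits were tested on simulated counts. With few counts, counting error takes a larger part of the spread. Alternatives were DESeq2 1.42.0 (also the authors' tool), limma-voom, RLE, upper-quartile or no factors, other filters, other thresholds, a replicate block and the fit without each library. The text names the 8 genes, every called gene of the receptor and regulator lists, the tested ligand genes, receptor genes of the 8 ligands (1 receptor and 1 regulator are not reported here), marker genes, neighbours of the 8 genes, uncalled regulators related to those called and, for each called gene, the 3 genes closest to it. The members and lists were chosen with earlier results of these data known.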

Additional observations from a re-analysis of the deposited data

How the results depend on the processing

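The number of called chemokine ligand genes was 6 of 8 in the main analysis, 4 with DESeq2, 5 at a log2 fold change of at least 1, 5 with the replicate number as a block and 4 to 6 without single libraries. Of all tested genes, 23.1% were called in the main analysis, 20.2% with DESeq2, 3.5% at a log2 fold change of at least 1, 23.5% with the block and 15.7% to 24.1% without single libraries. Without S1P replicate 1 the log2 fold change of Ccl9 turned positive (0.12), and without single libraries it ranged from -0.21 to 0.12; the cause was not tested. With at least 10 counts in every sample the count of called genes among the other ligands went from 1 to 0, since Cxcl11 was then not tested. At a log2 fold change of at least 1 the regulators called went from 8 to 2. Whether the replicate numbers pair the samples could not be told from 3 samples per group. Deviations from the group means correlated at 0.13, -0.01 and 0.06 for samples of the same number and at -0.12 to 0.06 for the others. The highest correlation was that of vehicle replicate 1 with S1P replicate 1, while vehicle replicate 2 correlated best with S1P replicate 3. The block gave 1697 higher and 1423 lower calls against 1687 and 1384, and Ccl1 was then not called (adjusted p = 0.0501). The median log2 fold change over tested genes moved by less than 0.1 between the scalings. Ccl1, Ccl27a, Cxcl9 and Cxcl11 had few counts, and their log2 fold changes had wider intervals than those of Xcl1, Ccl3 and Ccl4.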
